A study of Arabidopsis thaliana with 12 samples.

Results

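The 10 genes described here encode the main enzymes that place, keep and remove methyl groups on cytosines in Arabidopsis thaliana. They were taken by locus from the deposited expression table, where they are 10 of 32833 genes: MET1 (AT5G49160), CMT2 (AT4G19020), CMT3 (AT1G69770), DRM2 (AT5G14620), DDM1 (AT5G66750), SUVH4 (AT5G13960), ROS1 (AT2G36490), DME (AT5G04560), DML2 (AT3G10010) and DML3 (AT4G34060). All 10 had at least 1 FPKM in at least 3 libraries and were tested with the 19110 genes that met this rule. FPKM counts the fragments sequenced from a transcript per unit of its length and of mapped fragments in the library.

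The 12 libraries of leaf messenger RNA came in triplicate from 4 genotypes. These were crwn1;4 pnet2_b (called the pnet2_b triple mutant), crwn1;4 pnet2_a (the pnet2_a triple mutant), crwn1;4 (the double mutant) and the Col-0 wild type (WT), all untreated, so every mutant group lacked CRWN1 and CRWN4, coiled-coil proteins of the nuclear lamina. The pnet2_a and pnet2_b lesions were made by CRISPR per the labels, and PNET2 proteins lie in the inner nuclear membrane. Plants were 3 weeks old by the titles and 4 weeks old by the protocol, and the labels do not say how many lines or plants stand behind a group, so the spread behind each p-value is that of these samples alone and could be technical.

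In plants, MET1 copies CG methylation onto new DNA strands, CMT3 and CMT2 methylate CHG and CHH sites in chromatin marked by histone H3 lysine 9 methylation, and DRM2 methylates DNA at sites chosen by small RNAs. DDM1 is a chromatin remodeller that gives these enzymes access to heterochromatin, and SUVH4 (also called KYP) is the H3 lysine 9 methyltransferase that works in a loop with CMT3. ROS1, DME, DML2 and DML3 are DNA glycosylases that cut 5-methylcytosine out of DNA. ROS1 is the main one in leaves and is known to be less expressed where DNA methylation is lost, DME is best known from the central cell and the pollen vegetative nucleus, and DML2 and DML3 trim methylation at genes in vegetative tissue.

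The 250 bases before the annotated gene start are shown for 5 genes whose levels the results turn on, on the gene's own strand and read 5′ to 3′ from the RefSeq TAIR10.1 assembly. Capitals mark a W-box, the motif bound by WRKY factors (TTGACC or TTGACT on either strand), or an E2F site, the motif of cell cycle genes (TTTCCCGC, TTTCGCGC, TTTGCCGC or TTTGGCGC on either strand); the letters of these motifs do not overlap in the windows shown. MET1, DRM2 and DML2 are shown for a W-box, ROS1 for an E2F site, and DME, which rose in both triple mutants, for holding neither.
MET1: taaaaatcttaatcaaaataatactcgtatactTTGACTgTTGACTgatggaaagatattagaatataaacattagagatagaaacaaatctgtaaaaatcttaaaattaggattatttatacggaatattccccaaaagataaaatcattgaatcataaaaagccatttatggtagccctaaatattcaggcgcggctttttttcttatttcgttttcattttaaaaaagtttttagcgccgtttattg
DRM2: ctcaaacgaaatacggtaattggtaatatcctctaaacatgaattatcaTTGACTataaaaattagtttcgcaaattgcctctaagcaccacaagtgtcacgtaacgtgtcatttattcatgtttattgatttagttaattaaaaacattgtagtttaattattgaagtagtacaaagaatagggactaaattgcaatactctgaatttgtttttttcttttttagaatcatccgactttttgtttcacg
DML2: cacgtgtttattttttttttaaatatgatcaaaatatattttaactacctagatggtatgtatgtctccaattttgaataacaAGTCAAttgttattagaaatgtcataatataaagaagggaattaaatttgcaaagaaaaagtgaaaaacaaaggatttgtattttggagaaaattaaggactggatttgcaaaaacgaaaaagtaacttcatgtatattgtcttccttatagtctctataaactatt
ROS1: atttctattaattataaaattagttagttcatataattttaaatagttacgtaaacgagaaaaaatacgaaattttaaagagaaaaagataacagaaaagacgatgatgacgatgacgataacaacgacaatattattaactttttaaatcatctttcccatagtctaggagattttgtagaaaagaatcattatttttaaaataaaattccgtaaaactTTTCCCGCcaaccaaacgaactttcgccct
DME: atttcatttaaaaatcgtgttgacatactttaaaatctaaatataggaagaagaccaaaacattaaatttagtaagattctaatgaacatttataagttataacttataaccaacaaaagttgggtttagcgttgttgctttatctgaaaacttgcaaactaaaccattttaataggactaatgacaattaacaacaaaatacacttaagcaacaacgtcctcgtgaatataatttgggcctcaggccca

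The MET1 window (chr5:19931864-19932113, plus strand) held W-boxes whose first bases lay 217 and 210 bases before the gene start, and the DRM2 window (chr5:4718705-4718954, minus strand) held one at 201 bases. The DML2 window (chr3:3088551-3088800, minus strand) held one at 167 bases, read on the opposite strand as AGTCAA. The E2F match of ROS1 (chr2:15314808-15315057, minus strand) began 30 bases before the start, and the DME window is chr5:1308849-1309098 on the plus strand. In all, 3 of the 10 genes had a W-box, against 28.4% of 27443 windows of the same length, and 1 of the 10 had an E2F site, against 1.41% of windows. The matches are descriptions of these letters and not of binding.

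The genes lie on all the nuclear chromosomes. In TAIR10.1, MET1 spans chr5:19932114-19938470 on the plus strand, DME chr5:1309099-1318520 on the plus strand, and ROS1 chr2:15307907-15314807 on the minus strand. DML2 spans chr3:3081735-3088550 on the minus strand and DML3 chr4:16313366-16319426 on the plus strand. SUVH4 (chr5:4501362-4506250, plus strand) shares 60 bp with a gene on the opposite strand, and the strand setting of the counting is not given in the sources used here. None of the other 9 overlapped an annotated gene.

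The library labels were checked with the targeted genes. CRWN1 averaged 1.75 ± 0.265 FPKM in the pnet2_b triple mutant, 1.67 ± 0.208 in the pnet2_a triple mutant, 1.87 ± 0.130 in the double mutant and 12.4 ± 0.949 in WT, and CRWN4 averaged 1.51 ± 0.500, 1.56 ± 0.0794, 1.26 ± 0.0341 and 7.36 ± 0.967 FPKM in the same order (SD, n = 3 each). The pnet2_a and pnet2_b lesions themselves were not checked here. Library totals were 622263 to 669711 FPKM, no fixed step of 1 read was found, and depth is therefore unknown. Libraries of the same genotype correlated at 0.9843 to 0.9885 (Pearson r across genes, which are not independent replicates), against 0.9243 to 0.9844 between genotypes. Among leaf markers, the 4 photosynthesis genes RBCS1A, RBCS3B, LHCB1.3 and CAB3 summed to 30070–31410 FPKM in the pnet2_b triple mutant, 36080–38480 in the pnet2_a triple mutant, 43380–47320 in the double mutant and 44280–46050 in WT. Of the 4 seed markers 3 (CRU3, OLEO1 and LEC2) were at 0 in every library, as were 3 of the 4 root markers (PLT1, COBL9 and RHD6), while SHR had 2.80 to 4.87 FPKM. The 5 flower markers summed to at most 3.45 FPKM in the pnet2_b triple mutant, 1.68 in the pnet2_a triple mutant, 3.96 in the double mutant and 6.14 in WT.

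Levels of the 10 genes were low and close together. In both triple mutants DME was highest, at 9.68 ± 0.496 FPKM in the pnet2_b and 8.32 ± 0.335 FPKM in the pnet2_a triple mutant (SD, n = 3 each), with libraries that overlapped those of the next gene. In the double mutant and in WT ROS1 was highest, at 9.36 ± 0.729 and 8.94 ± 0.572 FPKM (SD, n = 3 each), and its libraries did not overlap those of MET1, next in the order. DML3 was lowest in all genotypes. Its libraries lay below those of DML2 in both triple mutants and overlapped them in the double mutant and in WT. The 10 genes together summed to 60.4–66.2 FPKM in the pnet2_b triple mutant, 49.1–55.4 in the pnet2_a triple mutant, 49.4–50.7 in the double mutant and 48.9–53.9 in WT.

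**Figure D1:**
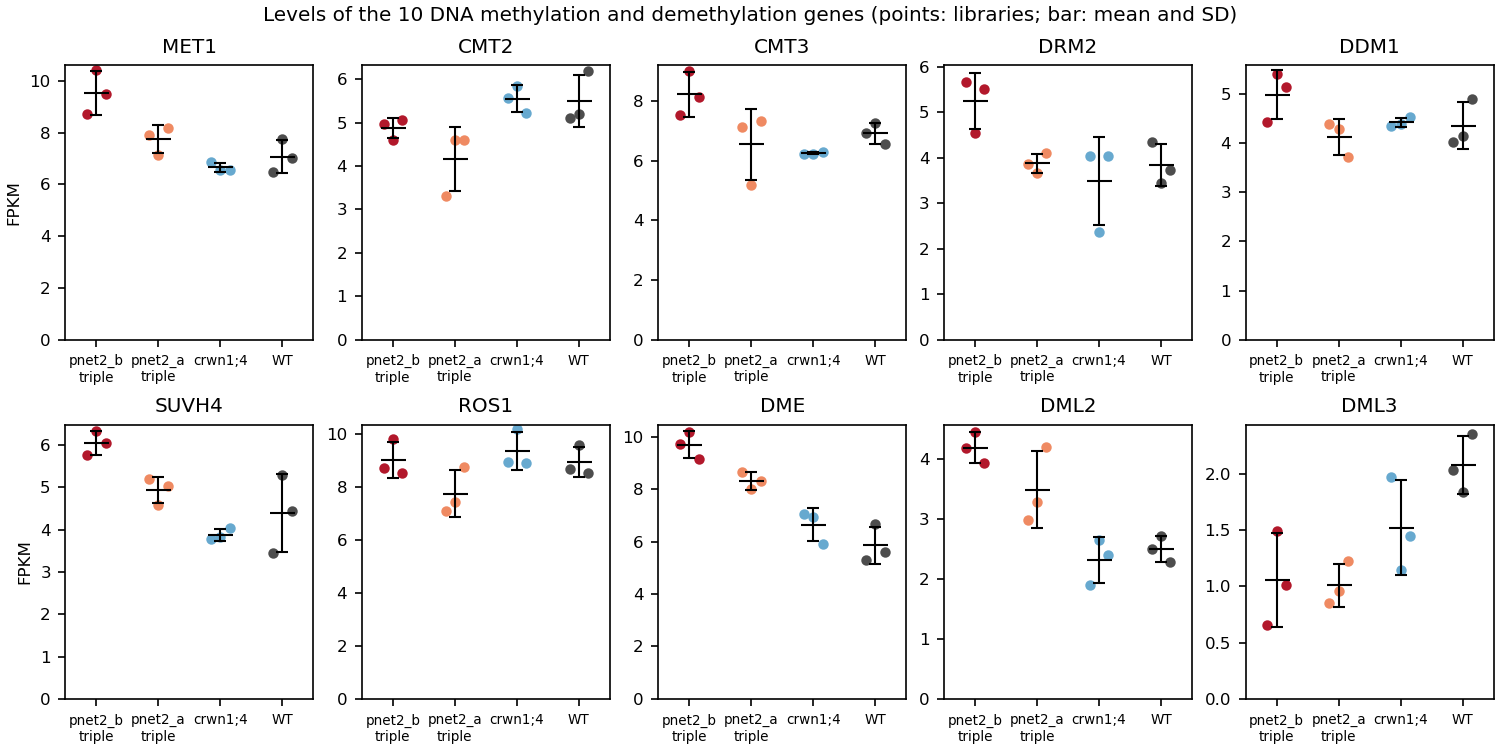
FPKM of the 10 genes in each library (points; colours are genotypes), with the mean and SD as bars, n = 3 libraries per genotype. MET1, CMT3, DRM2, DDM1, SUVH4, DME and DML2 had their highest mean in the pnet2_b triple mutant. For DME and for DML2 all 6 triple mutant libraries lay above all 6 others. How many of all genes did so was not counted, so this is a description only.

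Loss of CRWN1 and CRWN4 alone was compared with WT first. None of the 10 genes passed in the double mutant: 0 rose and 0 fell by limma's moderated test (Benjamini-Hochberg adjusted p below 0.05), and 0 had an unadjusted p below 0.05. Among all genes tested, 2.41% rose and 0.591% fell in this comparison. The changes ran from -0.30 for DML3 (SE 0.184, adjusted p = 0.436) to 0.16 for DME (SE 0.103, adjusted p = 0.460) on the log2(FPKM + 1) scale used throughout, which understates changes of low genes. The median of the 10 was -0.08, against 0.01 over all genes. CMT3 had 6.24, 6.23 and 6.31 FPKM in the double mutant and 6.95, 7.28 and 6.57 FPKM in WT, without overlap. Its change of -0.13 did not pass (adjusted p = 0.624). How many of all genes were without overlap was not counted in any comparison. This separation and those given for other genes are therefore descriptions only.

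The effect of adding pnet2_b to the double mutant was larger. Of the 10 genes, 6 rose and 0 fell, against 38.8% of all genes that rose and 8.63% that fell. The 6 were the methyltransferases MET1, CMT3 and DRM2, the histone methyltransferase SUVH4, and the glycosylases DME and DML2, on deposited FPKM. After median-ratio scaling 2 rose (SUVH4 and DML2) and 2 fell, and after quantile normalization 0 rose and 3 fell, as given with the scalings further on. The median change of the 10 was 0.40, against 0.23 over all genes. DDM1, CMT2, ROS1 and DML3 did not pass.

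Adding pnet2_a to the double mutant gave fewer calls. DME and DML2 rose and CMT2 fell, which is 2 and 1 of 10, against 22.9% and 9.2% of all genes. The median of the 10 was 0.09, against 0.11 over all genes. No gene of the 10 differed between the pnet2_b and the pnet2_a triple mutant by limma's test: 0 rose and 0 fell, against 2.12% and 0.754% of all genes. All 10 differences were positive, from 0.01 for DML3 to 0.35 for DRM2 (median 0.22, against 0.12 over all genes), and the smallest adjusted p was 0.147 for MET1 (log2 0.27, SE 0.0983). MET1, CMT3 and DRM2 had an unadjusted p below 0.05, and this does not show that the other 7 were alike in both mutants. The share of all genes with an unadjusted p below 0.05 was not counted in this or any other comparison. After median-ratio scaling the adjusted p of these 3 by limma's test was 0.530, 0.529 and 0.566. The comparisons with the double mutant share its 3 libraries.

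Against WT, 4 of the 10 rose in the pnet2_b triple mutant (MET1, SUVH4, DME and DML2) and 1 fell (DML3), where 38.4% of all genes rose and 9.25% fell, with a median of 0.29 for the 10 and 0.21 for all genes. In the pnet2_a triple mutant 1 rose (DME) and 2 fell (CMT2 and DML3) against WT, where 25.4% of all genes rose and 10.5% fell, with medians of -0.02 and 0.09.

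**Figure D2:**
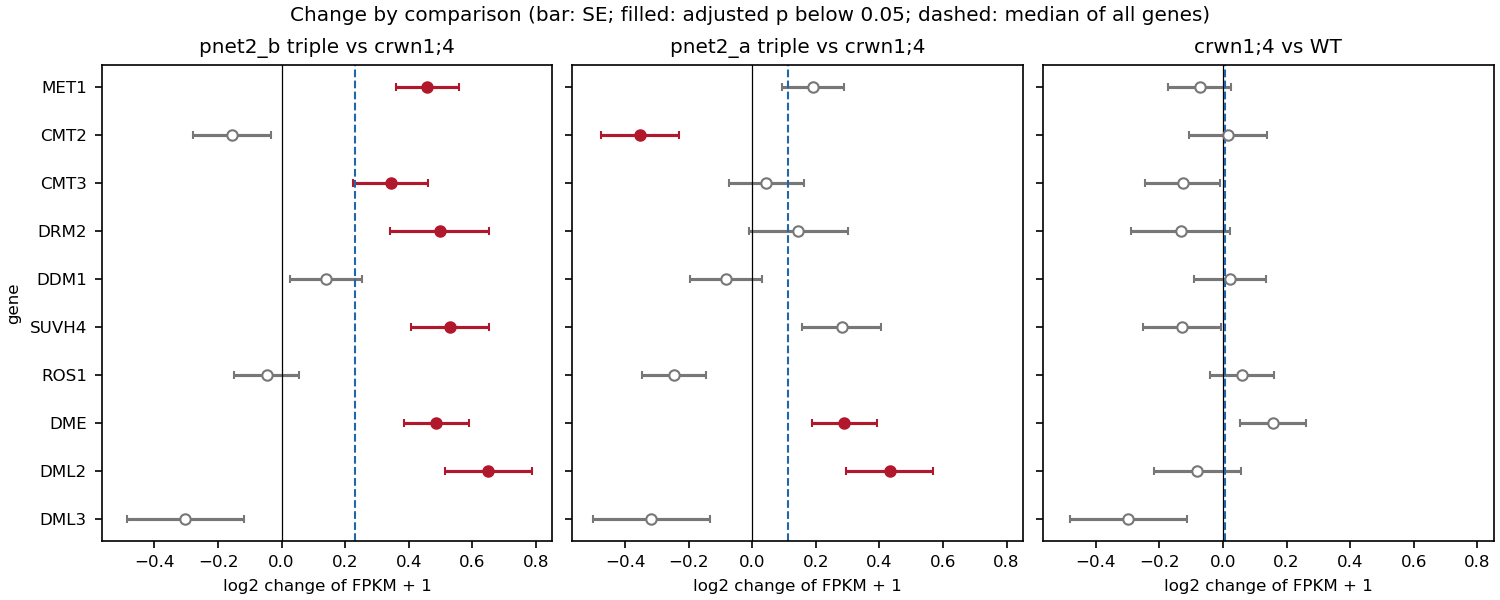
Change of each gene in log2(FPKM + 1) in the pnet2_b triple mutant and in the pnet2_a triple mutant, each over crwn1;4, and in crwn1;4 over WT. Points are estimates of limma, bars their SE, filled points have an adjusted p below 0.05, and the dashed line is the median of all 19110 genes, at 0.23, 0.11 and 0.01.

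Among the methyltransferases, MET1 had 8.71, 10.4 and 9.48 FPKM in the pnet2_b triple mutant and 7.92, 7.15 and 8.19 FPKM in the pnet2_a triple mutant, against 6.85, 6.57 and 6.55 FPKM in the double mutant and 6.47, 7.73 and 7.01 FPKM in WT. All libraries of the pnet2_b triple mutant lay above all others of this gene, and those of the pnet2_a triple mutant lay above the double mutant and overlapped WT. The mean of the pnet2_b triple mutant was 1.43 times that of the double mutant, a log2 change of 0.46 (SE 0.0983, adjusted p = 0.00171), and against WT the change was 0.39 (adjusted p = 0.00508). The change of the pnet2_a triple mutant was 0.19 over the double mutant (adjusted p = 0.154) and did not pass.

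CMT3, the CHG methyltransferase, had 7.53, 9.02 and 8.14 FPKM in the pnet2_b triple mutant and 7.13, 5.18 and 7.35 FPKM in the pnet2_a triple mutant. The double mutant lay between 6.23 and 6.31 FPKM, so the pnet2_b libraries lay above it and the pnet2_a libraries on both sides of it. The log2 change was 0.34 (SE 0.118, adjusted p = 0.0271) in the pnet2_b triple mutant and 0.04 (adjusted p = 0.807) in the pnet2_a triple mutant. The call in the pnet2_b triple mutant was lost without any 1 of 5 libraries, namely double mutant replicate 1, 2 or 3 or pnet2_b replicate 2 or 3.

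CMT2 is its CHH counterpart, and the difference between the changes of CMT2 and CMT3 was not tested. CMT2 had 4.97, 4.61 and 5.06 FPKM in the pnet2_b triple mutant and 3.31, 4.59 and 4.59 FPKM in the pnet2_a triple mutant, against 5.58, 5.85 and 5.23 FPKM in the double mutant and 5.10, 5.19 and 6.18 FPKM in WT. All 6 triple mutant libraries thus lay below all 6 others. In the pnet2_a triple mutant CMT2 fell to 75.0% of the double mutant mean (log2 -0.35, SE 0.122, adjusted p = 0.0401) and fell against WT (log2 -0.34, adjusted p = 0.0449), while in the pnet2_b triple mutant the change of -0.16 over the double mutant (adjusted p = 0.311) did not pass. The call against WT was lost with no filter, under TPM, with array weights, with 2 genotypes only and with replicate number as a block. That over the double mutant was lost with no filter and with 2 genotypes only. The call over the double mutant was lost without double mutant replicate 1, 2 or 3, without pnet2_a replicate 1 or without pnet2_b replicate 1 or 3, and the call against WT was lost in all these cases and without any WT library or pnet2_b replicate 2. CMT3 was 1.51 to 1.96 times CMT2 within libraries of the pnet2_b triple mutant, 1.13 to 2.16 in the pnet2_a triple mutant, 1.07 to 1.21 in the double mutant and 1.06 to 1.40 in WT.

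DRM2, the de novo enzyme of RNA-directed DNA methylation, had 5.67, 4.53 and 5.51 FPKM in the pnet2_b triple mutant and 3.85, 3.67 and 4.09 FPKM in the pnet2_a triple mutant, against 4.04, 2.36 and 4.04 FPKM in the double mutant and 4.35, 3.44 and 3.73 FPKM in WT. The pnet2_b libraries lay above all 9 others, and the other 3 genotypes overlapped. The change of the pnet2_b triple mutant over the double mutant was 0.50 (SE 0.156, adjusted p = 0.0174) and was lost without double mutant replicate 2, the low one at 2.36 FPKM, and without pnet2_b replicate 1 or 3. Against WT the change of 0.36 did not pass (adjusted p = 0.0689). It passed under TPM, with 2 genotypes only, with replicate number as a block and without double mutant replicate 2.

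SUVH4 and DDM1 act on chromatin, and the difference between their changes was not tested. SUVH4 had 5.77, 6.34 and 6.04 FPKM in the pnet2_b triple mutant and 5.19, 4.59 and 5.02 FPKM in the pnet2_a triple mutant, against 3.78, 3.82 and 4.04 FPKM in the double mutant and 3.45, 5.29 and 4.43 FPKM in WT. The pnet2_b libraries lay above all others, and the pnet2_a libraries lay above the double mutant and within the WT range. SUVH4 was 1.56 times the double mutant mean in the pnet2_b triple mutant (log2 0.53, SE 0.124, adjusted p = 0.00308), and the 0.28 in the pnet2_a triple mutant did not pass (adjusted p = 0.0987). Against WT the pnet2_b change was 0.40 (adjusted p = 0.0157), a call lost without WT replicate 1 or pnet2_b replicate 2.

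DDM1 had 4.43, 5.41 and 5.15 FPKM in the pnet2_b triple mutant and 4.40, 4.29 and 3.72 FPKM in the pnet2_a triple mutant, against 4.36, 4.39 and 4.54 FPKM in the double mutant and 4.03, 4.15 and 4.91 FPKM in WT. Each triple mutant overlapped the double mutant and WT. No comparison passed, and the changes over the double mutant were 0.14 in the pnet2_b (adjusted p = 0.323) and -0.08 in the pnet2_a triple mutant (adjusted p = 0.615).

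Among the glycosylases, DME had 9.73, 10.2 and 9.16 FPKM in the pnet2_b triple mutant and 8.66, 7.99 and 8.30 FPKM in the pnet2_a triple mutant, against 7.06, 6.95 and 5.91 FPKM in the double mutant and 5.31, 6.66 and 5.61 FPKM in WT. The triple mutants did not overlap each other or the other genotypes, while the double mutant and WT overlapped. DME was 1.65 times the WT mean in the pnet2_b triple mutant (log2 0.64, SE 0.103, adjusted p = 0.000146) and 1.42 times in the pnet2_a triple mutant (log2 0.45, SE 0.103, adjusted p = 0.00349). Over the double mutant it was 1.46 times higher in the pnet2_b triple mutant (log2 0.49, adjusted p = 0.00153) and 1.25 times in the pnet2_a triple mutant (log2 0.29, adjusted p = 0.0439). The rise against WT passed in 23 of 23 alternative settings in each triple mutant, with adjusted p up to 0.0135 in the pnet2_b and 0.0452 in the pnet2_a triple mutant. The rise of the pnet2_a triple mutant over the double mutant passed in 10 of 23 and was lost without any 1 library of the 3 mutant genotypes.

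DML2 had 4.18, 4.44 and 3.93 FPKM in the pnet2_b triple mutant and 2.98, 3.27 and 4.20 FPKM in the pnet2_a triple mutant, against 1.89, 2.65 and 2.40 FPKM in the double mutant and 2.50, 2.71 and 2.27 FPKM in WT. All 6 triple mutant libraries lay above all 6 others. On deposited FPKM and the log2(FPKM + 1) scale, DML2 had the largest change of the 10 over the double mutant in each triple mutant, at 0.65 (1.81 times the mean, SE 0.137, adjusted p = 0.00155) in the pnet2_b triple mutant and 0.43 (1.50 times, SE 0.137, adjusted p = 0.0267) in the pnet2_a triple mutant. As plain means in the pnet2_a triple mutant, DML3 was at 66.4% of the double mutant and DML2 at 150.4%. The lead of DML2 there thus depends on the scale, which understates changes of low genes. After median-ratio scaling DML3 lay further from 0 than DML2 in the pnet2_a triple mutant (-0.39, against 0.35), as did CMT2 (-0.45), and ROS1 was level at -0.35. After quantile normalization DML3 (-0.66) and CMT2 (-0.46) did so in the pnet2_b triple mutant, against 0.35 for DML2. In the pnet2_a triple mutant CMT2 (-0.51), DML3 (-0.49) and ROS1 (-0.40) did so after quantile normalization, against 0.27 for DML2. The pnet2_a call was lost under both scalings, with 2 genotypes only and without double mutant replicate 1 or pnet2_a replicate 3. Against WT, DML2 changed by 0.57 (adjusted p = 0.00352) in the pnet2_b triple mutant and by 0.35, which did not pass (adjusted p = 0.0597), in the pnet2_a triple mutant.

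DML3 was lower in the triple mutants than in WT. It had 0.659, 1.49 and 1.01 FPKM in the pnet2_b triple mutant and 0.852, 0.953 and 1.22 FPKM in the pnet2_a triple mutant, against 1.97, 1.14 and 1.45 FPKM in the double mutant and 2.03, 1.84 and 2.35 FPKM in WT. Both triple mutants lay below WT without overlap, and the double mutant overlapped all 3 other genotypes. Against WT, DML3 fell to 50.7% of the mean in the pnet2_b triple mutant (log2 -0.60, SE 0.184, adjusted p = 0.0152) and to 48.6% in the pnet2_a triple mutant (log2 -0.61, SE 0.184, adjusted p = 0.0178). Each call held in 20 of 22 alternatives, and both were lost without WT replicate 3, the pnet2_b call also without pnet2_b replicate 1 and the pnet2_a call also without pnet2_a replicate 1. Neither step over the double mutant passed (-0.30, adjusted p = 0.191, in the pnet2_b and -0.32, adjusted p = 0.209, in the pnet2_a triple mutant).

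ROS1, the main leaf glycosylase, had 8.74, 9.80 and 8.54 FPKM in the pnet2_b triple mutant and 7.08, 7.44 and 8.75 FPKM in the pnet2_a triple mutant, against 8.96, 10.2 and 8.93 FPKM in the double mutant and 8.69, 9.60 and 8.54 FPKM in WT. The pnet2_a libraries lay below those of the double mutant and overlapped WT, and the other 3 genotypes overlapped. No comparison passed, with changes over the double mutant of -0.05 (adjusted p = 0.722) in the pnet2_b and -0.25 (adjusted p = 0.0780) in the pnet2_a triple mutant. The second passed without pnet2_a replicate 3 and under the scalings described next.

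The scaling of the libraries set part of these calls. FPKM totals differed little, and yet the median of all genes stood 0.23 above the double mutant in the pnet2_b and 0.11 above it in the pnet2_a triple mutant on the log2 scale. Relative to that median, the changes over the double mutant in the pnet2_b triple mutant were 0.42 for DML2, 0.30 for SUVH4, 0.27 for DRM2, 0.26 for DME, 0.23 for MET1 and 0.11 for CMT3. They were -0.09 for DDM1, -0.28 for ROS1, -0.39 for CMT2 and -0.53 for DML3. After median-ratio scaling, which brought the median of all genes to 0.02, SUVH4 (log2 0.32, adjusted p = 0.0408) and DML2 (0.46, adjusted p = 0.0153) rose, while CMT2 (-0.36, adjusted p = 0.0309) and ROS1 (-0.27, adjusted p = 0.0419) fell. MET1 (0.24, adjusted p = 0.0597), DME (0.26, adjusted p = 0.0559), DRM2 (0.30, adjusted p = 0.181) and CMT3 (0.12, adjusted p = 0.434) did not pass under it. Nor did DML3 (-0.44, adjusted p = 0.075). For this low gene the value relative to the median (-0.53) overstates the fall after median-ratio scaling and understates that after quantile normalization (-0.66). After quantile normalization 0 rose and CMT2, ROS1 and DML3 fell. Over all genes the split moved in the same way, with 7424 higher and 1650 lower on deposited FPKM and 3498 higher and 3427 lower after median-ratio scaling.

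In the pnet2_a triple mutant over the double mutant, CMT2 (log2 -0.45, adjusted p = 0.0119) and ROS1 (-0.35, adjusted p = 0.0139) fell and 0 rose after median-ratio scaling, and the same 2 fell after quantile normalization. Over all genes 4380 were higher and 1759 lower on deposited FPKM, and 2976 higher and 2770 lower after median-ratio scaling. Against WT, DME rose and CMT2 and DML3 fell under both of these scalings in both triple mutants, and the rises of MET1 and SUVH4 in the pnet2_b triple mutant passed under neither. ROS1 fell too, except in the pnet2_b triple mutant under median-ratio scaling (log2 -0.21, adjusted p = 0.111), and DML2 kept its rise in the pnet2_b triple mutant under median-ratio scaling (log2 0.38, adjusted p = 0.0363).

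**Figure D3:**
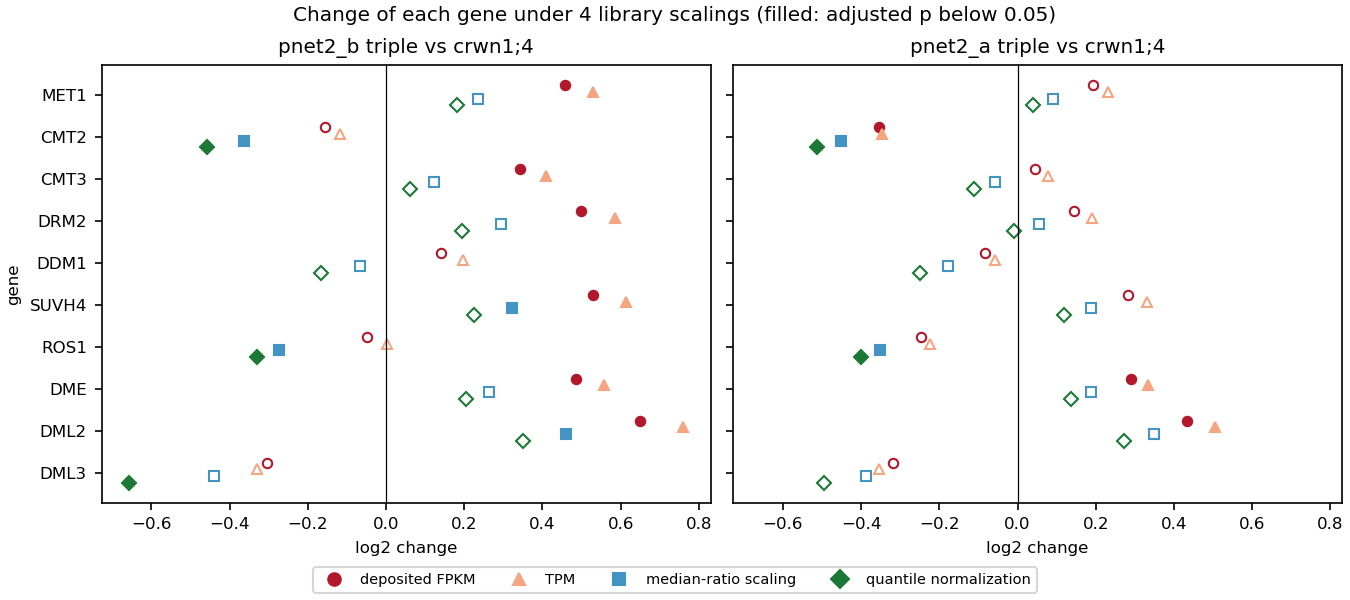
Log2 change of each gene over the double mutant in the pnet2_b and in the pnet2_a triple mutant under 4 scalings (marker shape), with filled markers for adjusted p below 0.05. Median-ratio and quantile values lie left of those from deposited FPKM and TPM for all 10 genes, and CMT2 and ROS1 are filled only under these 2 scalings in the pnet2_b panel.

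Ratios between genes of a library do not change when the library is multiplied by 1 factor, although quantile normalization alters them, and 4 were taken after the values had been seen, as a description with no test. DME was 1.11, 1.04 and 1.07 times ROS1 in the pnet2_b triple mutant and 1.23, 1.07 and 0.948 times in the pnet2_a triple mutant, against 0.788, 0.682 and 0.662 times in the double mutant and 0.611, 0.694 and 0.656 times in WT. MET1 was 0.997 to 1.11 times ROS1 in the pnet2_b triple mutant, 0.936 to 1.12 in the pnet2_a triple mutant, 0.644 to 0.765 in the double mutant and 0.745 to 0.821 in WT. DML2 was 2.98 to 6.35 times DML3 in the pnet2_b triple mutant, 3.43 to 3.49 in the pnet2_a triple mutant, 0.959 to 2.33 in the double mutant and 0.964 to 1.47 in WT. In each of these 3 ratios all 6 triple mutant libraries lay above all 6 others, while in CMT3 over CMT2, given above, the pnet2_a libraries overlapped the double mutant and WT. The pairs were picked for their values, so the separation is no support for the changes.

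**Figure D4:**
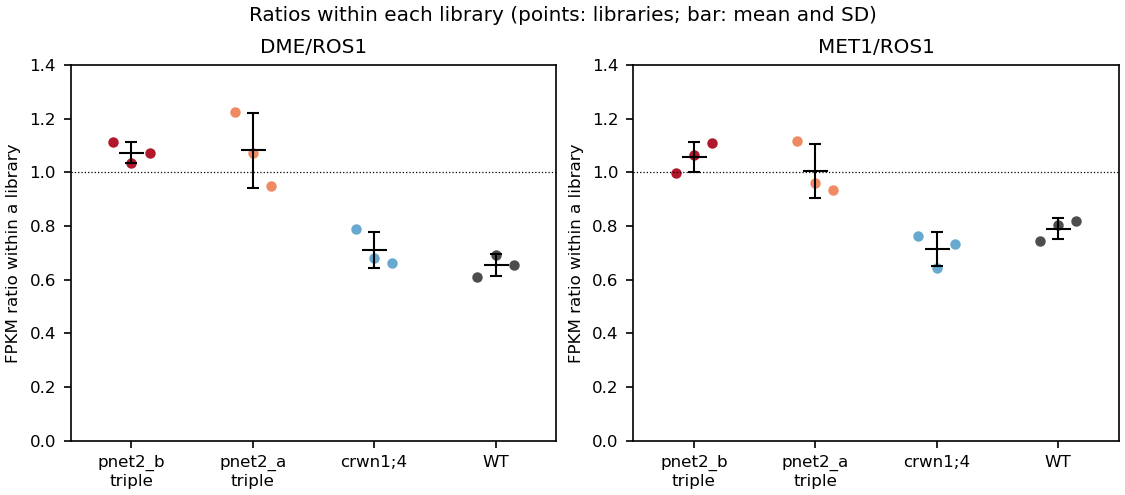
FPKM of DME over ROS1 and of MET1 over ROS1 within each library (points), with the mean and SD as bars and n = 3 per genotype. DME over ROS1 averaged 1.07 ± 0.0384 in the pnet2_b triple mutant, 1.08 ± 0.138 in the pnet2_a triple mutant, 0.710 ± 0.0676 in the double mutant and 0.654 ± 0.0412 in WT, and the dotted line marks equal levels.

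Other genes of the same pathways were taken from lists by locus. Of 15 other methyltransferases and maintenance factors, 10 were tested, and 5 (DRM1, CMT1, MET2a, MET2b and MEE57) were at 0 in every library. Over the double mutant, 4 rose and 0 fell in the pnet2_b triple mutant (median 0.26), where 38.8% of all genes rose (median 0.23). In the pnet2_a triple mutant 4 rose and 0 fell (median 0.11), where 22.9% of all genes rose (median 0.11). In the double mutant against WT 0 passed (median -0.03, with 1 at an unadjusted p below 0.05). IBM1, a histone demethylase that keeps H3 lysine 9 methylation off genes and whose own transcript is known to depend on intronic methylation, averaged 7.49 FPKM in the pnet2_b and 6.09 FPKM in the pnet2_a triple mutant, against 4.63 FPKM in the double mutant and 4.71 FPKM in WT. Its rise was 0.59 (adjusted p = 0.000272) in the pnet2_b and 0.33 (adjusted p = 0.0198) in the pnet2_a triple mutant. VIM1, which binds hemimethylated CG sites for MET1 and has close copies that may share its reads, rose by 0.41 and by 0.29. HOG1, the adenosylhomocysteinase that clears the by-product of methylation, rose by 0.27 and by 0.15. The folate enzyme MTHFD1 rose by 0.26 and by 0.28, and the median of all genes moved by 0.23 and by 0.11. Changes of the genes of this and the following lists are given on deposited FPKM only.

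Of 23 genes of RNA-directed DNA methylation, 20 were tested. In the pnet2_b triple mutant over the double mutant 7 rose (AGO4, DMS3, IDN2, KTF1, MORC6, NRPD2 and RDM1) and 0 fell, with a median of 0.30. Of all genes 38.8% rose in this step, with a median of 0.23. In the pnet2_a triple mutant 3 rose (KTF1, NRPD2 and SHH1) and 0 fell, with a median of 0.23. Of all genes 22.9% rose in that step, with a median of 0.11. None passed in the double mutant against WT by limma's test, where the median was -0.12 and 0 had an unadjusted p below 0.05. NRPD2, the shared second subunit of RNA polymerases IV and V, averaged 6.97 FPKM in the pnet2_b and 6.13 FPKM in the pnet2_a triple mutant, against 4.16 FPKM in the double mutant and 4.99 FPKM in WT (changes over the double mutant of 0.63, adjusted p = 0.000468, and 0.47, adjusted p = 0.00584). KTF1, which couples polymerase V transcripts to AGO4, rose by 0.60 and by 0.40. DMS3, RDM1, MORC6 and IDN2 rose by 0.37 to 0.58 in the pnet2_b triple mutant, and their 0.21 to 0.34 in the pnet2_a triple mutant did not pass.

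Of 11 partners of the glycosylases, 10 were tested. In the pnet2_b triple mutant 6 rose over the double mutant (ZDP, LIG1, MBD7, APE1L, AE7 and XRCC1) and 0 fell, with a median of 0.32, and in the pnet2_a triple mutant ZDP and XRCC1 rose and 0 fell, with a median of 0.16. None passed in the double mutant against WT by limma's test (median -0.09, with 1 at an unadjusted p below 0.05). ZDP, the phosphatase that processes the gap left by ROS1, averaged 7.80 FPKM in the pnet2_b and 6.62 FPKM in the pnet2_a triple mutant, against 4.41 FPKM in the double mutant and 5.54 FPKM in WT, with changes over the double mutant of 0.71 (adjusted p = 0.00115) and 0.51 (adjusted p = 0.0157). LIG1, the DNA ligase that seals the gap, changed by 0.44 and by 0.10, the second not past the threshold. XRCC1, a repair scaffold, rose by 0.34 and by 0.35. The share of these genes that rose is to be read against the 38.8% and 22.9% of all genes given above.

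**Figure D5:**
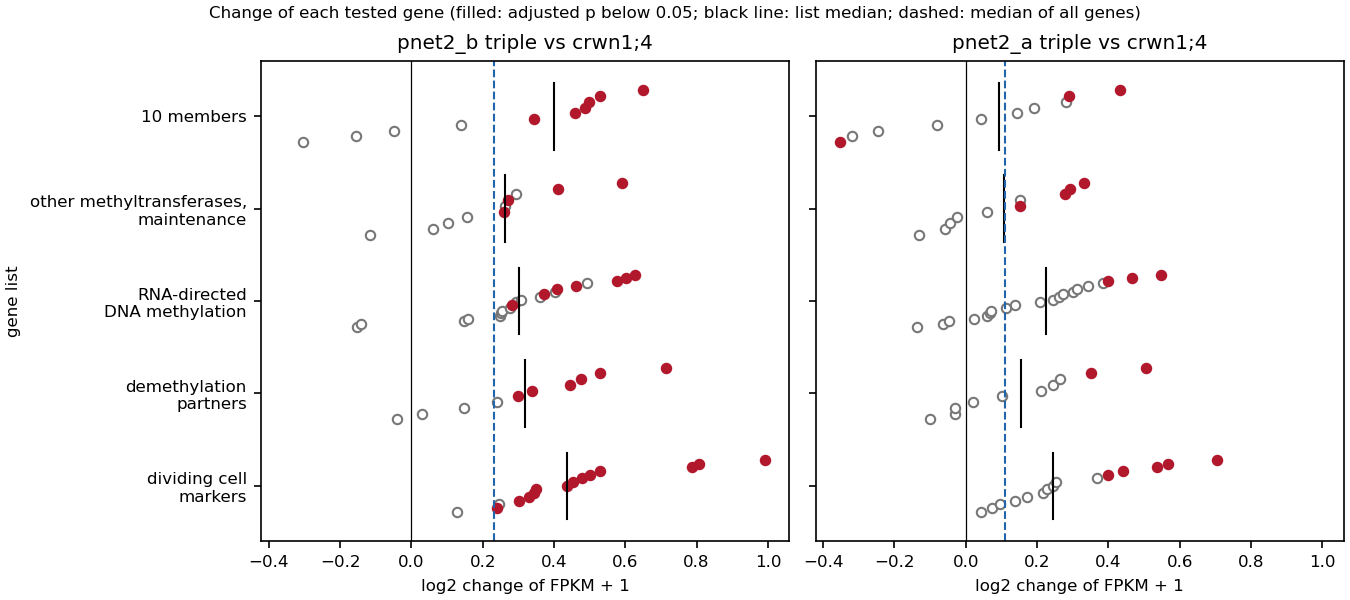
Log2 change over the double mutant of every tested gene of 5 lists (points, filled at adjusted p below 0.05) in the pnet2_b and in the pnet2_a triple mutant, with the list's median as a black line and the median of all genes (0.23 and 0.11) as a dashed line. Of the 15 dividing cell markers, 13 rose in the pnet2_b and 5 in the pnet2_a triple mutant.

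Markers of dividing cells were higher in the triple mutants than in the double mutant. The 15 markers, none of them at 0 in every library, summed to 210.2–224.7 FPKM in the pnet2_b triple mutant, 181.2–200.5 in the pnet2_a triple mutant, 136.9–154.9 in the double mutant and 159.2–174.7 in WT. Over the double mutant 13 rose and 0 fell in the pnet2_b triple mutant (median 0.44) and 5 rose and 0 fell in the pnet2_a triple mutant (median 0.25), against 38.8% and 22.9% of all genes that rose, and 0 passed in the double mutant against WT (median -0.17, with 2 at an unadjusted p below 0.05). Against WT 5 rose in the pnet2_b triple mutant (median 0.17, against 0.21 over all genes, of which 38.4% rose) and 3 in the pnet2_a triple mutant (median 0.04, against 0.09 over all genes, of which 25.4% rose), and 0 fell. TSO2, a ribonucleotide reductase subunit, rose over the double mutant by 0.81 (adjusted p = 3.95e-07) and 0.57 (adjusted p = 1.72e-05), the cytokinesis syntaxin KNOLLE by 0.79 and 0.54, and the mitotic cyclin CYCB1;1 by 0.99 and 0.70. The replicative helicase gene MCM4 rose by 0.45 and 0.40, and MCM6 and the cyclin CYCB1;2 rose by 0.50 and 0.48 in the pnet2_b triple mutant, while their 0.23 and 0.25 in the pnet2_a triple mutant did not pass. All 4 leaf markers fell over the double mutant in each triple mutant (medians -0.56 and -0.26). The part of the dividing cell and leaf markers in the changes of the 10 genes was not tested, and in whole leaves a change in the number of cells of a type and in RNA per cell cannot be told apart.

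Of 8 genes known to be controlled by DNA methylation, 3 were tested (RLP43, EPF2 and QQS). DNA methylation itself was not measured in these messenger RNA libraries. Its part, or that of ROS1, in the values below was therefore not tested. FWA, SDC and DOGL4, which are silent in leaves while their promoters are methylated, were at 0 in every library. RLP43, a receptor-like protein gene whose promoter is a known target of ROS1, had 7.70, 6.42 and 8.61 FPKM in the pnet2_b triple mutant and 6.77, 6.26 and 7.71 FPKM in the pnet2_a triple mutant, against 0.818, 0.552 and 1.33 FPKM in the double mutant and 0.445, 0 and 0.395 FPKM in WT, where 0 is the value listed. All 6 triple mutant libraries lay above all 6 others. It rose over the double mutant by 2.19 (SE 0.184, adjusted p = 5.50e-07) in the pnet2_b and by 2.07 (SE 0.184, adjusted p = 1.75e-06) in the pnet2_a triple mutant, and its 0.57 in the double mutant over WT did not pass (adjusted p = 0.122). QQS and EPF2 did not pass in these 3 comparisons, and EPF2 fell in the pnet2_b triple mutant against WT (log2 -0.55, adjusted p = 0.0279). Below the filter, RMG1, a resistance gene and ROS1 target, was at 0 in the double mutant and WT and reached 0.438 FPKM in the pnet2_b and 0.426 FPKM in the pnet2_a triple mutant, and PHE1 stayed at or below 0.825 FPKM.

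The genes with the pattern most like MET1 and most like DME, which had the smallest adjusted p of the methylation and demethylation genes over the 3 steps, were found by Pearson r of log2(FPKM + 1) over the 12 libraries among 19109 genes. For MET1 they were NRPA1 (r = 0.970), UBP16 (0.965) and TCP-1 (0.960), and for DME they were DREB19 (0.976), ASP1 (0.975) and PAP18 (0.970). DREB19 averaged 3.07 FPKM in the pnet2_b and 1.78 FPKM in the pnet2_a triple mutant, against 0.490 FPKM in the double mutant and 0.142 FPKM in WT. The libraries share genotype and scaling, so these values describe likeness only.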

How the data were processed

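The values analysed are FPKM as the authors deposited them, with no rescaling. HISAT2 2.0.4 and TAIR10 are named per the submitters' processing notes. For the counting program, the annotation release and the strand setting the sources used here give nothing. Genotype and replicate number came from the sample titles. A minimum of 1 FPKM in 3 or more of the 12 libraries kept 19110 of 32833 genes. Changes were tested with limma 3.58.1 (R 4.3.3) on log2(FPKM + 1), in 1 fit of genotype over all 12 libraries with a moderated, trended spread (8 residual degrees of freedom), and p-values were Benjamini-Hochberg adjusted over all genes kept within each of 6 comparisons. The step was tested on simulated data.

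The 10 genes and all lists were chosen with earlier results of these data known. Named are the 10 genes, CRWN1 and CRWN4, up to 6 passing genes per pathway list by smallest adjusted p over the double mutant against WT and the 2 steps from it, and the 3 genes most like the leading gene of each kind. AGO4, SHH1, RMG1, PHE1 and the markers at 0 were named after their values were seen. No library pair held identical values, and depth is unknown: the values of low genes showed no steps of 1 read (at most 2.05% of ratios in a 0.01 log2 step, 12 pairs). The smallest values above 0 were 0.293 to 0.336 FPKM. Alternatives were pseudocounts of 0.1 and 5, no filter, a filter of 5 FPKM, TPM, median-ratio scaling, quantile normalization, no trend, array weights, 2 genotypes only, replicate number as a block, and each library left out. Figures used matplotlib 3.10.9 (Python 3.11.15).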

Additional observations from a re-analysis of the deposited data

Results flagged for a closer look

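On deposited FPKM, DDM1 lay on opposite sides of the double mutant mean in the triple mutants, with neither change past the threshold. Its libraries were at 4.43 to 5.41 FPKM in the pnet2_b triple mutant, all above the double mutant mean of 4.43 FPKM (the lowest by less than the rounding shows), and at 3.72 to 4.40 FPKM in the pnet2_a triple mutant, all below it. After median-ratio and quantile scaling both changes were negative (-0.07 and -0.17 in the pnet2_b, -0.18 and -0.25 in the pnet2_a triple mutant), so these 2 scalings remove the opposite direction. On deposited FPKM the means differed by 0.861 FPKM (pnet2_b minus pnet2_a). The direct comparison of the triple mutants by limma did not pass (log2 0.22, SE 0.113, adjusted p = 0.271). Both steps share the double mutant's libraries, and groups of 3 are too small for a test of single outlying libraries.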

How the results depend on the processing

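Of the alternative values of the 10 genes' log2 changes, 1225 kept direction and side of the threshold, 70 lost a call and 19 gained one with the sign kept, and 42 changed sign, 1 of which also gained a call (ROS1 in the pnet2_b triple mutant over WT under quantile normalization, adjusted p = 0.0337). Counts of genes past the threshold moved as follows. In the pnet2_a triple mutant over the double mutant, 3 on deposited values, the count was 1 with no filter and 0 with 2 genotypes only, and 0 to 3 with a library left out. In the pnet2_b triple mutant over the double mutant, 6 on deposited values, it was 3 under quantile normalization, all of them lower, and 4 to 6 with a library left out. Against WT it was 1 to 3 in the pnet2_a triple mutant with a library left out, and in the pnet2_b triple mutant 4 to 6, and 3 under a filter of 5 FPKM, which drops the low genes. It was 0 in all leave-one-out fits of the double mutant against WT and of the 2 triple mutants.

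Replicate numbers did not pair the libraries: deviations of same-numbered libraries correlated at -0.0842 to 0.0678 over 18 pairs. With replicate number as a block, 6 genes passed in the pnet2_b and 3 in the pnet2_a triple mutant over the double mutant, 6 and 2 against WT, 0 between the triple mutants and 0 in the double mutant against WT. The fall of CMT2 in the pnet2_a triple mutant against WT was lost and the rise of DRM2 in the pnet2_b triple mutant against WT was gained.

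Sign changes concerned values that had not passed on deposited FPKM. In the pnet2_b triple mutant, median-ratio and quantile scaling gave DDM1 -0.0659 and -0.165 over the double mutant and -0.0369 and -0.153 over WT, and ROS1 -0.206 and -0.281 over WT. ROS1 was 0.00140 over the double mutant under TPM and -0.000849 over WT with array weights, and CMT3 was -0.0798 over WT under quantile normalization. In the pnet2_a triple mutant, these 2 scalings gave CMT3 -0.0568 and -0.111 over the double mutant and DRM2 -0.0760 and -0.154 over WT, and quantile normalization gave DRM2 -0.0100 over the double mutant and MET1 -0.0478 and SUVH4 -0.0182 over WT. CMT2 was -0.000289 in the double mutant over WT under quantile normalization. DML3 between the pnet2_b and the pnet2_a triple mutant was -0.0527, -0.162 and -0.0217 under median-ratio scaling, quantile normalization and array weights.

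With a library left out, signs changed for CMT2 (-0.0261 to 0.0914), DRM2 (-0.232 to 0.0622), DDM1 (-0.0218 to 0.0941) and DML2 (-0.153 to 0.0143) in the double mutant over WT, and for ROS1 in the pnet2_b triple mutant over the double mutant (-0.102 to 0.0101) and over WT (-0.0426 to 0.0585). In the pnet2_a triple mutant they changed for CMT3 (-0.0348 to 0.182) and DRM2 (-0.0509 to 0.243) over the double mutant and for CMT3 (-0.162 to 0.0553), DRM2 (-0.0485 to 0.0858) and DDM1 (-0.104 to 0.0121) over WT. DML3 ranged from -0.135 to 0.158 between the triple mutants.

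Over all genes, 574 passed in the double mutant against WT, 29 with 2 genotypes only and 305 to 691 with a library left out. Between the triple mutants 550 passed, 201 without the trend, 908 with 2 genotypes only, 1150 with array weights and 123 to 640 with a library left out. Unless a value above shows it, the cause was not tested, and depth being unknown, no limit from counting can be set.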
